A study of Mus musculus with 14 samples.

Results

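The genes described here are the core of the NF-kappaB pathway: 3 genes of the IKK complex (Chuk, Ikbkb and Ikbkg), the 5 NF-kappaB subunit genes (Nfkb1, Nfkb2, Rela, Relb and Rel) and 2 feedback inhibitors (Nfkbia and Tnfaip3). They were chosen by name and make up 10 of the 55416 genes in the tables. The libraries hold bulk RNA of lung or of the gastrocnemius (a muscle of the calf), and the mice were male C57BL/6 (C57BL/6NCrlOri), 6 to 8 weeks old. In the tumour-bearing groups (TB in the titles) 5000000 cells of a line named KrasIKKaL had been given into the trachea. There were 5 tumour-bearing and 3 control (CON) lung libraries, and 3 tumour-bearing and 3 control muscle libraries. For control mice the treatment was not given in the sources used here. The labels give neither the origin of the cell line nor what its name encodes, although IKKa is a usual name of the kinase made from Chuk. Host and injected cells were not separated in the lung samples, so that each lung value sums over both. The labels do not tie libraries to separate animals, and p-values therefore reflect only how these libraries vary, a spread that may be technical. The series was made to look for targets in cachexia and in muscle side effects of immunotherapy, and the pathway is a known regulator of both inflammation and muscle wasting.

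NF-kappaB dimers are held in the cytoplasm by IkB proteins, of which IkB-alpha (Nfkbia) is the prototype. In the canonical arm the kinase IKK-beta (Ikbkb), with IKK-alpha (Chuk) and the scaffold NEMO (Ikbkg), phosphorylates IkB, which is then degraded, and dimers of RelA (Rela), c-Rel (Rel) and p50 (made from Nfkb1) enter the nucleus. In the non-canonical arm the kinase NIK (Map3k14) and IKK-alpha drive the processing of p100 (Nfkb2) to p52, which pairs with RelB (Relb). Nfkbia and Tnfaip3, which encodes the ubiquitin-editing enzyme A20, are induced by NF-kappaB and limit it, and Nfkb2, Relb and Rel are known targets as well. The pathway is controlled to a large part after transcription, by phosphorylation and degradation, which RNA levels do not show.

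The promoters were searched for 1 form of the κB motif, to which NF-kappaB dimers are known to bind. The motif searched was GGG, any 2 bases and TTTCC, on either strand, in the 250 bases before the annotated start, with overlapping matches on the opposite strand counted once per window. The motif was spelled out after these promoters had been looked at, so that the number of the genes that hold it is a description only. It is narrower than the range of known κB sites, and other forms were neither searched nor marked. It was present in 464 of 32851 promoter windows in RefSeq (1.41%) and in at least 1 window of 447 of 27025 genes (1.65%). Of the 10 genes, 7 had windows (not Ikbkb, Nfkb1 and Relb), and 4 of these held the motif: Tnfaip3, Rel, Nfkbia and Nfkb2. Their last 100 bases before the start are shown 5′ to 3′ on the strand of the gene, in RefSeq coordinates of build GRCm38.p6, with the motif or its reverse complement in capitals. The intervals are chr10:19015411-19015510 for Tnfaip3, chr11:23770970-23771069 for Rel and chr12:55492648-55492747 for Nfkbia, all on the minus strand, and chr19:46304637-46304736 on the plus strand for Nfkb2. Nfkb2 also held the motif in another window, 225 to 216 bases before the start of that window, which is not shown.
Tnfaip3: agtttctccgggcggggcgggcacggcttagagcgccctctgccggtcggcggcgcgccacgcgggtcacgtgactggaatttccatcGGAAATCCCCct
Rel: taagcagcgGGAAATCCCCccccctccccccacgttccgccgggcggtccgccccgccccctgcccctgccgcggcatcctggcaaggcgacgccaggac
Nfkbia: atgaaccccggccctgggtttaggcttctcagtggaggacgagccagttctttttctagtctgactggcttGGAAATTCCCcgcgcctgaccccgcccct
Nfkb2: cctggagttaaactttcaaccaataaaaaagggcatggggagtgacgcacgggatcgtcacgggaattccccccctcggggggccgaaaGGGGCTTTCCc
A match of these letters is a description and not evidence of binding.

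Library totals ran from 47947363 to 61087315 counts in lung and from 32476194 to 44169410 in muscle. The tissue labels matched their markers: Sftpc, surfactant protein C, was listed at 0 in all muscle libraries, and the 5 myofibre markers together held 4.90 to 27.0 TPM (transcripts-per-million) in lung against 56268 to 93289 TPM in muscle. Tumour-bearing and control lungs differed widely in cell markers. The summed TPM of 5 epithelial markers was 7572 to 12381 in tumour-bearing lung and 964 to 991 in control lung, and that of 5 proliferation markers was 125.5 to 336.4 in tumour-bearing lung and 14.7 to 20.0 in control lung. Alveolar type 2 markers summed to 26.8 to 1258 TPM in tumour-bearing lung and 37803 to 43917 TPM in control lung, and endothelial markers to 31.4 to 43.7 TPM in tumour-bearing lung and 824.5 to 956.5 TPM in control lung. The 6 markers of all leukocytes summed to 66.9 to 264.6 TPM in tumour-bearing lung and 462.6 to 546.7 TPM in control lung. In a bulk sample, fewer cells of a type and less RNA per cell cannot be told apart, and the part of these shifts in the results on lung was not tested. Among muscle libraries, tumour-bearing replicate 1 stood apart in several of the genes described here, and results that rest on it are given with and without it.

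In tumour-bearing lung, the NF-kappaB genes did not move one way. Nfkb2 and Ikbkb rose, while Nfkb1, Rela, Rel, Nfkbia and Tnfaip3 fell, in edgeR's quasi-likelihood test at an adjusted p of 0.05. The greatest change among the 10 was in Nfkbia, at 0.339 times the control level. These 7 of 10 genes (2 higher, 5 lower) stand against a background of 59.7% of 19300 genes called, with 30.4% higher and 29.3% lower, so the number of calls is near the background. The median log2 fold change of the 10 was -0.26, beside 0.07 for all genes. Values by library are TMM-scaled CPM (counts-per-million), the scale of the test, unless TPM is named.

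Among the IKK genes, Ikbkb, the kinase of the canonical arm (ENSMUSG00000031537), had 81.5, 101.8, 66.9, 90.8 and 103.3 CPM in the 5 tumour-bearing lungs and 59.0, 62.8 and 59.9 CPM in the 3 control lungs. Every tumour-bearing lung was above every control lung, and the log2 fold change was 0.55 (SE 0.17, adjusted p = 0.0181). This call depended on single libraries, since leaving out control 1, 2 or 3 gave an adjusted p of 0.0589, 0.0579 or 0.0713. It was also lost in 1 fit of all libraries (0.0569), with the replicate block (0.0811) and on TPM, where the value was 0.07 (0.691). Chuk, the IKK-alpha gene (ENSMUSG00000025199), had 60.5, 71.9, 60.6, 53.3 and 87.8 CPM in tumour-bearing lung against 47.5, 50.7 and 53.0 CPM in control lung. Its groups did not overlap either, by a narrow margin between tumour-bearing replicate 4 and control replicate 3, but its log2 fold change of 0.41 (SE 0.18) missed the threshold (adjusted p = 0.0778) and passed it without tumour-bearing replicate 4 (0.50, adjusted p = 0.0286). Ikbkg, the NEMO gene (ENSMUSG00000004221), had 65.7, 39.1, 62.6, 79.7 and 81.9 CPM in tumour-bearing lung and 47.6, 50.0 and 50.0 CPM in control lung. Tumour-bearing replicate 2 lay below all controls and the other four above them, so that the log2 fold change of 0.42 (SE 0.23, adjusted p = 0.144) became 0.58 (adjusted p = 0.00635) without that library. Ikbkg shares 418 of its 8110 exon bases with G6pdx on the opposite strand, a gene with a log2 fold change of 1.37 in lung (adjusted p = 0.00361), and reads over these bases cannot be told apart because the strand setting of the counting was not given in the sources used here. On TPM the change in Ikbkb was 0.07 (adjusted p = 0.691), and those in Chuk (-0.05) and Ikbkg (-0.21) had the opposite sign, a scaling under which the median of all genes lay at -0.23.

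Among the subunits, the genes for the precursors p105 and p100 went opposite ways. Nfkb1 (ENSMUSG00000028163) had 61.1, 65.4, 68.4, 55.4 and 68.3 CPM in tumour-bearing lung and 105.0, 108.1 and 111.4 CPM in control lung. The groups were far apart and each was tight, with a log2 fold change of -0.76 (SE 0.12, adjusted p = 0.000662) that passed under every alternative run. Nfkb2 (ENSMUSG00000025225) had 71.8, 62.2, 49.1, 69.8 and 64.9 CPM in tumour-bearing lung and 38.2, 40.5 and 39.2 CPM in control lung. All tumour-bearing lungs were higher, with a log2 fold change of 0.69 (SE 0.15, adjusted p = 0.00414); on TPM the value was 0.25 and missed the threshold (adjusted p = 0.129). Nfkb2 shares 531 of 4584 exon bases with the non-coding AC114539.1 and 299 with Psd, both on the opposite strand and neither past the threshold in lung.

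The genes of the transactivating subunits RelA and c-Rel fell in tumour-bearing lung and that of RelB did not change detectably. Rela (ENSMUSG00000024927) had 69.1, 71.9, 66.8, 101.7 and 90.9 CPM in tumour-bearing lung and 112.2, 111.8 and 111.1 CPM in control lung. Its groups did not overlap (log2 fold change -0.48, SE 0.17, adjusted p = 0.0340), although the call was lost when control 1, 2 or 3 (adjusted p = 0.0925, 0.0900 or 0.0866) or tumour-bearing replicate 1, 2 or 3 (0.0666, 0.0600 or 0.0644) was left out, without a filter on low counts (0.0571) and in 1 fit of all libraries (0.107). Rel (ENSMUSG00000020275) had 10.4, 4.96, 18.3, 7.56 and 10.8 CPM in tumour-bearing lung and 21.1, 24.0 and 25.6 CPM in control lung. The tumour-bearing values varied widely, but none reached a control value (log2 fold change -1.18, SE 0.36, adjusted p = 0.0190; 0.0547 without control replicate 2 and 0.0632 without control replicate 3). Relb (ENSMUSG00000002983) had 26.0, 16.9, 11.7, 18.5 and 21.2 CPM in tumour-bearing lung and 16.8, 20.2 and 21.4 CPM in control lung. All 3 controls lay within the range of the tumour-bearing lungs (log2 fold change -0.04, SE 0.25, adjusted p = 0.897).

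Both feedback inhibitors fell. Nfkbia (ENSMUSG00000021025) had 103.4, 73.5, 74.8, 146.9 and 106.9 CPM in tumour-bearing lung and 231.9, 337.1 and 324.7 CPM in control lung. Every tumour-bearing lung was below the lowest control (log2 fold change -1.56, SE 0.25, adjusted p = 0.000633), and the call held under every alternative run. Tnfaip3 (ENSMUSG00000019850) had 15.99, 13.0, 17.8, 24.3 and 55.01 CPM in tumour-bearing lung and 51.3, 55.3 and 57.1 CPM in control lung. Replicates 1 to 4 lay below the controls and replicate 5 among them, so that the groups overlapped (log2 fold change -1.11, SE 0.43, adjusted p = 0.0484). That call was lost when any control (adjusted p = 0.0903, 0.106 and 0.112 for replicates 1, 2 and 3) or any of tumour-bearing replicates 1 to 4 (0.0918, 0.0756, 0.0922 and 0.0827) was left out, and in 1 fit of all libraries (0.0818). Without tumour-bearing replicate 5 it became -1.59 and stayed past the threshold. Of the genes shown above with a κB motif, Nfkbia, Tnfaip3 and Rel were lower and Nfkb2 was higher in tumour-bearing lung. In all, 3 genes had every tumour-bearing lung above every control (Chuk, Ikbkb and Nfkb2) and 4 had every one below (Nfkb1, Rela, Rel and Nfkbia), against 63.0% of all genes tested without overlap, 30.9% above and 32.1% below.

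**Figure D1:**
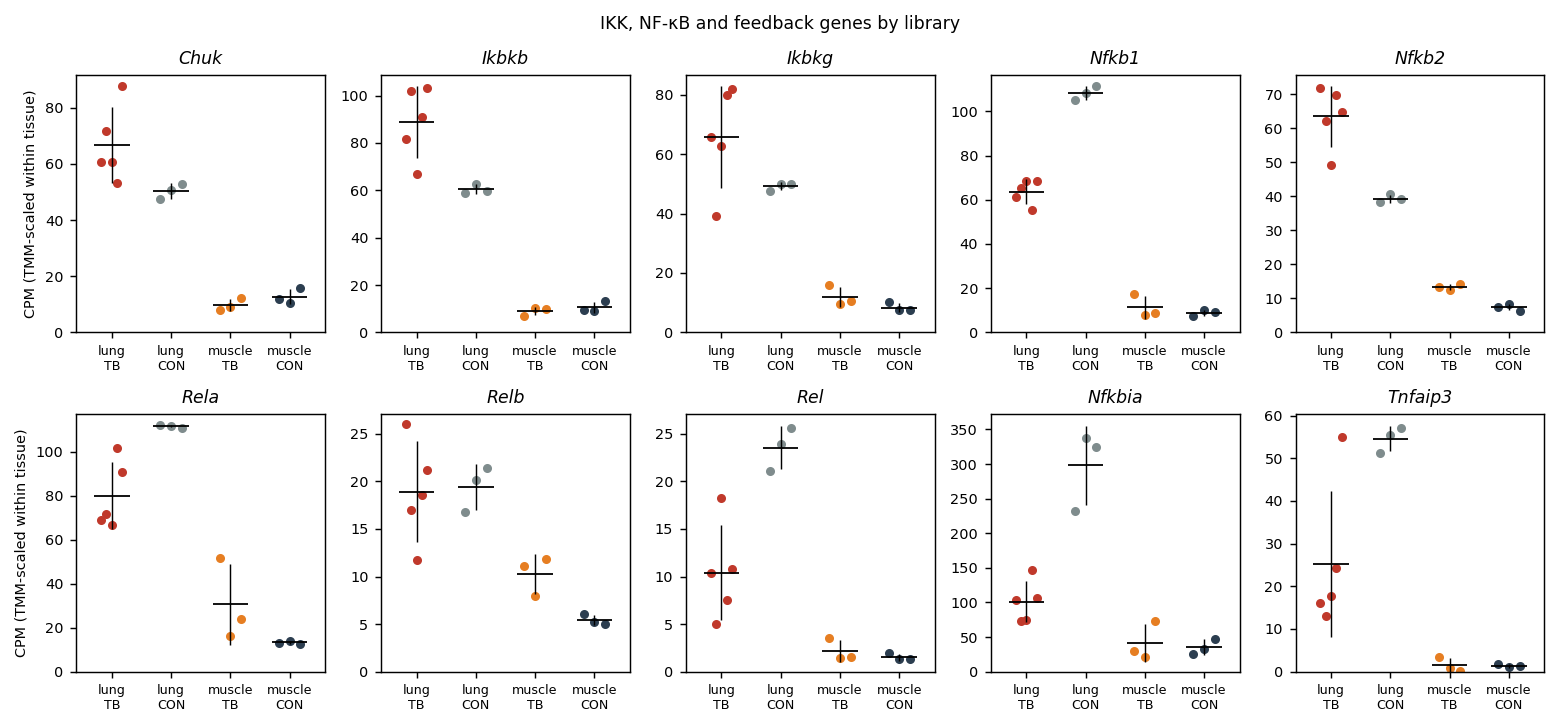
Each panel shows 1 gene, with 1 point per library in TMM-scaled CPM (linear axis from 0) for tumour-bearing (TB) and control (CON) lung and muscle. Bars mark group means, and Nfkbia and Nfkb1 show the widest separation of the lung groups, while muscle tumour-bearing replicate 1 is the highest muscle library for Rela at 51.6 CPM.

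The order of transcript levels was read from the deposited TPM, which divide by transcript length. In tumour-bearing lung Nfkbia was highest at 78.1 ± 22.3 TPM (SD, n = 5), followed by Rela at 36.7 ± 6.58 TPM and Ikbkb at 32.2 ± 5.07 TPM. Chuk, Nfkb1, Nfkb2 and Ikbkg lay between 28.5 and 17.8 TPM, and Relb (9.91 ± 2.81), Tnfaip3 (6.50 ± 3.86) and Rel (1.54 ± 0.81) were lowest. Neighbours in this order from Rela down to Tnfaip3 overlapped. In control lung Nfkbia stood at 316 ± 55.2 TPM (n = 3), then Rela at 75.3 ± 6.10, Nfkb1 at 57.1 ± 1.05 and Ikbkb at 30.3 ± 0.66 TPM, with Rel again lowest at 4.66 ± 0.35 TPM. There, the overlapping neighbours were Ikbkb and Chuk, Ikbkg and Nfkb2, and Nfkb2 and Tnfaip3.

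The make-up of the subunit transcripts shifted towards Nfkb2 in tumour-bearing lung. Nfkb2 made up 23.4% ± 2.08 of the summed TPM of the 5 subunits in tumour-bearing lung (20.9% to 25.9%, n = 5) and 11.2% ± 0.461 in control lung (10.8% to 11.7%, n = 3). The share of Nfkb1 was 27.9% ± 3.83 in tumour-bearing lung and 33.5% ± 0.712 in control lung, and that of Rela was 37.2% ± 5.32 in tumour-bearing lung and 44.1% ± 2.26 in control lung. These are shares within a library, which the scaling between libraries does not change. The ratio of Nfkb2 to Nfkb1 was 0.854 ± 0.151 in tumour-bearing lung and 0.334 ± 0.0123 in control lung, without overlap. The summed subunit level was 98.6 ± 6.34 TPM in tumour-bearing lung and 170.6 ± 5.18 TPM in control lung, whereas the 3 IKK genes summed to 78.6 ± 7.95 TPM in tumour-bearing lung and 79.7 ± 1.01 TPM in control lung. Nfkbia, the inhibitor, was present at 0.785 ± 0.175 TPM per subunit TPM in tumour-bearing lung and 1.86 ± 0.374 in control lung, again without overlap. These ratios of RNA say nothing of protein ratios.

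**Figure D2:**
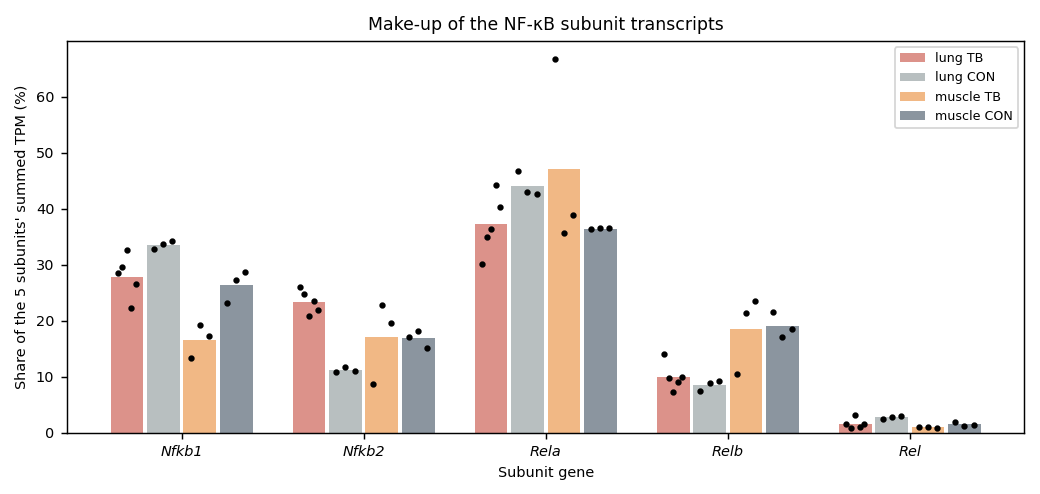
The vertical axis gives each subunit gene's share (%) of the summed TPM of the 5 subunit genes, with 1 point per library and bars for group means, for tumour-bearing and control groups of each tissue. The Nfkb2 share is 20.9% to 25.9% in tumour-bearing lung and 10.8% to 11.7% in control lung.

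In gastrocnemius none of the 10 genes passed the threshold in edgeR, where 15.3% of 14373 genes did (8.53% higher and 6.75% lower). Nfkb2, Rela and Relb had an unadjusted p below 0.05 in edgeR, as did 5126 of all 14373 genes. They were the 3 called by DESeq2, which called 3657 of the 14373 genes. With limma-voom 0 of the 10 and 2111 of all genes were called. Nfkb2 had 13.2, 12.4 and 14.3 CPM in tumour-bearing muscle and 7.41, 8.30 and 6.42 CPM in control muscle. Relb had 11.1, 7.92 and 11.9 CPM in tumour-bearing muscle and 6.08, 5.22 and 5.06 CPM in control muscle. Both genes, the pair of the non-canonical dimer, were higher in 3 of 3 tumour-bearing libraries than in any control, with log2 fold changes of 0.85 (SE 0.25, adjusted p = 0.0504) and 0.91 (SE 0.28, adjusted p = 0.0549). Without tumour-bearing replicate 2, Nfkb2 (0.92, adjusted p = 0.0291), Relb (1.09, adjusted p = 0.0167) and Rela (1.53, adjusted p = 0.0175) passed, where 4513 of 14804 genes did.

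Rela had 51.6, 16.4 and 23.8 CPM in tumour-bearing muscle and 13.0, 14.03 and 12.8 CPM in control muscle. All 3 tumour-bearing libraries were above the controls, with replicate 1 far above the other two (log2 fold change 1.20, SE 0.41, adjusted p = 0.0721). Without replicate 1 the log2 fold change was 0.61 (adjusted p = 0.128). In that library RSEM's mean length of the Rela transcripts was 1686 bases, against 2716 and 2691 bases in the other tumour-bearing muscles and 2716 in each control muscle, so its TPM of 35.5 rests on a shorter transcript mix as well as on its counts. The same library had the highest marker sums of muscle for all leukocytes, at 22.4 TPM in a range of 9.41 to 22.4 TPM in tumour-bearing and 11.2 to 15.0 TPM in control muscle, for macrophages, at 62.4 TPM, and for alveolar macrophages, at 30.6 TPM. Of these lists 0 of 6, 1 of 6 (Cd68) and 3 of 3 tested markers were higher in tumour-bearing muscle, and their part in the result was not tested. The macrophage list had a median log2 fold change of -0.49. The alveolar macrophage markers Marco and Siglecf were at or near 0 in muscle and not tested. Non-overlap with all tumour-bearing libraries higher was seen in 3 of the 10 genes (Nfkb2, Rela and Relb) and the reverse in 0, against 43.1% of all genes without overlap, 21.1% higher and 22.0% lower.

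The other 7 genes overlapped between the muscle groups. Chuk (log2 fold change -0.39, adjusted p = 0.350) and Ikbkb (-0.24, adjusted p = 0.579) lay on the low side, and Ikbkg (0.52, adjusted p = 0.233) on the high side. Nfkb1 (0.35, adjusted p = 0.495) and Rel (0.51, adjusted p = 0.425) owed their positive values to tumour-bearing replicate 1, without which they were -0.09 and -0.03. Nfkbia had 30.3, 20.8 and 73.2 CPM in tumour-bearing muscle and 24.9, 33.2 and 47.9 CPM in control muscle (0.23, adjusted p = 0.744). Tnfaip3 was low, at 3.39, 0.875 and 0.270 CPM in tumour-bearing muscle and 1.85, 1.02 and 1.29 CPM in control muscle (0.15, adjusted p = 0.901). Both inhibitors varied more among tumour-bearing libraries than between the groups.

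The difference between the tissues was tested as the tumour effect in lung minus that in muscle, in 1 fit of all 14 libraries. It passed for 4 of the 10 genes, all lower in lung than in muscle, against a background of 35.6% of 19834 genes (16.6% higher and 19.0% lower). The log2 differences were -1.78 for Nfkbia (SE 0.52, adjusted p = 0.0159), -1.68 for Rela (SE 0.42, adjusted p = 0.00675), -1.68 for Rel (SE 0.60, adjusted p = 0.0416) and -1.12 for Nfkb1 (SE 0.35, adjusted p = 0.0213). Rela passed under every alternative run, though its difference was -1.08 without muscle tumour-bearing replicate 1. That same library carried much of the difference in Nfkb1 (-0.67 without it, adjusted p = 0.0404) and in Rel (-1.13, adjusted p = 0.161). For Rel the call was also lost without muscle control 2 or 3, without any control lung and without tumour-bearing lung 1, 4 or 5 (adjusted p from 0.0557 to 0.0977), in limma-voom (0.0646) and without a filter (0.0528). Nfkb1 missed it without muscle control 1 (-1.02, adjusted p = 0.0588) and with the replicate block (0.0867), and Nfkbia without muscle tumour-bearing replicate 3 (-1.13, adjusted p = 0.0527). Nfkb2 had a difference of -0.16 (SE 0.25, adjusted p = 0.683), and its log2 fold changes were 0.69 in lung and 0.85 in muscle. Chuk (0.79, adjusted p = 0.0591), Ikbkb (0.77, adjusted p = 0.0613) and Relb (-0.95, adjusted p = 0.0530) lay just beyond the threshold and passed in DESeq2, the first pair also with RLE scaling and Relb also on TPM and among genes averaging at least 1 CPM. Tnfaip3 passed on TPM alone (-1.63, adjusted p = 0.0158). Leaving out muscle tumour-bearing replicate 3 or tumour-bearing lung 4 brought Chuk past it (adjusted p = 0.0355 and 0.0407), leaving out muscle tumour-bearing replicate 2 or tumour-bearing lung 3 did so for Ikbkb (0.0315 and 0.0395), and leaving out muscle tumour-bearing replicate 2 or tumour-bearing lung 1 for Relb (0.0348 and 0.0246).

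**Figure D3:**
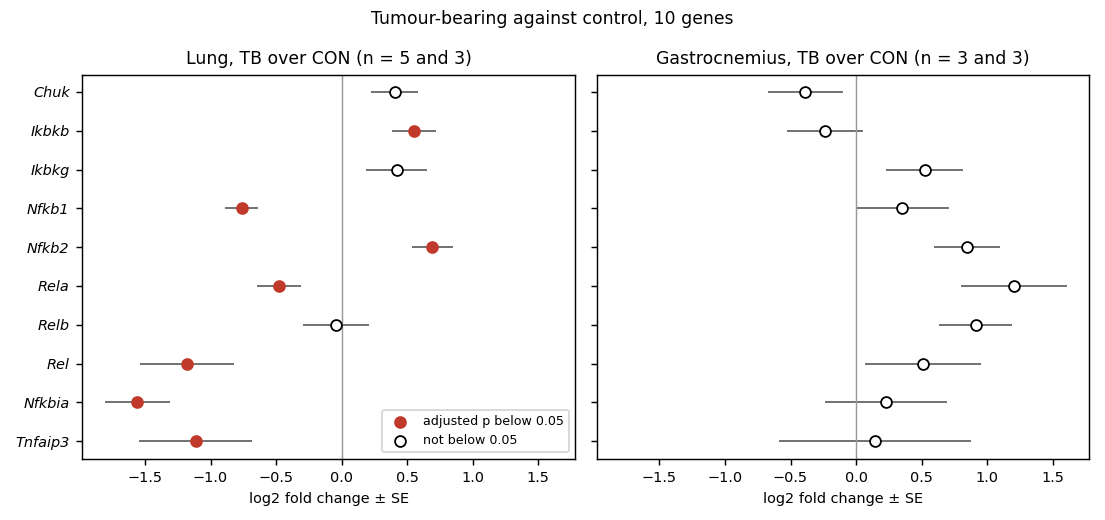
Horizontal axes give the log2 fold change of tumour-bearing over control with its standard error for each of the 10 genes, in lung and in gastrocnemius, and filled points mark an adjusted p below 0.05. Nfkb2 lies right of 0 in both tissues (0.69 in lung, 0.85 in muscle), whereas Nfkbia is at -1.56 in lung and 0.23 in muscle.

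Without a tumour, lung expressed most of these genes at higher levels than muscle. In control lung against control muscle, 8 of 10 were higher and 0 lower in the fit of all libraries, against 62.5% of all genes called, 37.9% higher and 24.6% lower, and an all-gene median of 0.51. Tnfaip3 showed the greatest difference (log2 difference 3.78, SE 0.72, adjusted p = 0.000379), followed by Rel (2.44, SE 0.47, adjusted p = 0.000445) and Nfkb1 (2.12, SE 0.27, adjusted p = 1.14e-05). Chuk (0.49, adjusted p = 0.0744) and Relb (0.33, adjusted p = 0.2997) did not pass. Chuk passed without muscle control 3 (0.65, adjusted p = 0.0431) or without muscle tumour-bearing replicate 1 (0.50, adjusted p = 0.0492). On TPM both passed, Chuk at 2.60 (adjusted p = 3.6e-08) and Relb at 2.38 (adjusted p = 4.13e-06), with all 10 genes higher, but on that scale the all-gene median was 1.47 and 14899 genes were called higher against 1243 lower. Leukocyte markers differed in the same way, at 462.6 to 546.7 TPM in control lung and 11.2 to 15.0 TPM in control muscle, and their part was not tested. Within muscle the order was headed by Nfkbia, at 21.3 ± 7.90 TPM in tumour-bearing and 17.3 ± 0.82 TPM in control muscle (n = 3 each), and ended with Tnfaip3 and Rel, whose means were at most 0.387 TPM in either group.

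The wider pathway was followed in 8 lists of 96 genes. In lung 20 were higher and 27 lower of the 95 tested, with a median log2 fold change of -0.08 beside 0.07 for all genes and a background of 30.4% higher and 29.3% lower. On TPM they were 10 higher and 44 lower, with a median of -0.47 beside -0.23 for all genes, of which 3594 were higher and 7994 lower. Of 11 ligand genes 5 were lower and 1 higher (median -1.07; 7 and 0 on TPM), and of 12 receptor genes 6 were lower and 2 higher (median -0.49; 7 and 1 on TPM). Cd40lg, the CD40 ligand of activated T cells, had 2, 0, 0, 0 and 1 counts in tumour-bearing lung and 29, 32 and 36 counts in control lung (adjusted p = 0.000220). Tnfsf12, the TWEAK gene, fell (-1.38, adjusted p = 0.00200). It shares 731 of 1515 exon bases with Tnfsfm13 on the same strand, a gene that also fell (-1.26, adjusted p = 0.00569), and reads over these bases are split by estimate. The TWEAK receptor gene Tnfrsf12a, encoding Fn14, rose 6.91-fold (2.79, adjusted p = 6.39e-05) and the accessory interleukin-1 receptor gene Il1rap fell (-2.64, adjusted p = 9.08e-06). T cell markers summed to 0.99 to 14.8 TPM in tumour-bearing lung and 37.6 to 51.1 TPM in control lung, with 2 of 5 lower, and B cell markers to 0.68 to 5.82 TPM in tumour-bearing lung and 29.8 to 57.7 TPM in control lung, with 5 of 5 lower; their part in these changes was not tested.

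Of 21 adaptors and kinases 9 were higher and 3 lower (median 0.24), but the split turned on TPM, with 5 higher and 7 lower (median -0.23). Of all genes in lung 30.4% were called higher and 29.3% lower, and on TPM 3594 were higher and 7994 lower. Tradd, the adaptor of tumour necrosis factor receptor 1, had 23.3 to 36.6 CPM in tumour-bearing lung and 10.4 to 10.7 CPM in control lung (log2 fold change 1.65, adjusted p = 0.000116). Of the 4 genes of the non-canonical arm, Birc3, the cIAP2 gene and itself a target, fell (-1.32, adjusted p = 0.00102), and NIK's gene Map3k14 (-0.49, adjusted p = 0.0790; -0.66 and 0.0104 without tumour-bearing replicate 3; -0.91 and 0.00613 on TPM), Traf3 (0.03, adjusted p = 0.870; -0.38 and 0.0371 on TPM) and Birc2 (-0.07, adjusted p = 0.867) did not pass. Among the other IkB genes, Nfkbil1 rose (1.28, adjusted p = 0.000982) and Nfkbid, the gene of IkB-NS, fell (-1.54, adjusted p = 0.00195). Nfkbib (0.41, adjusted p = 0.0817; 0.50 and 0.0255 without tumour-bearing replicate 3), Nfkbie (0.56, adjusted p = 0.145; 0.72 and 0.0458 without replicate 4), Nfkbiz (0.73, adjusted p = 0.101; 0.90 and 0.0282 without replicate 3) and Bcl3 (0.41, adjusted p = 0.364) did not.

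Of 12 further brakes on the pathway 2 were higher and 1 lower in lung, against 30.4% higher and 29.3% lower of all genes. Tnip1, encoding the A20-binding protein ABIN1, rose (1.16, adjusted p = 0.000452), while Traf1 fell (-2.87, adjusted p = 3.02e-05). Of 25 known target genes 9 were lower and 5 higher, against 29.3% lower and 30.4% higher of all genes. Icam1, the adhesion molecule, had 14.8 to 33.8 CPM in tumour-bearing lung and 351 to 426 CPM in control lung (-3.83, adjusted p = 1.18e-05), and Ptgs2, the COX-2 gene, had 5.89 to 25.2 CPM in tumour-bearing lung and 184 to 239 CPM in control lung (-4.23, adjusted p = 9.33e-05). Of 5 genes linked to the non-canonical arm, 4 were tested and the chemokine gene Ccl21a fell (-2.87, adjusted p = 0.00434); Ccl19 did not pass (-1.74, adjusted p = 0.199) but did without tumour-bearing replicate 2 (-3.18, adjusted p = 0.0141), in limma-voom (-3.30, adjusted p = 0.0268) and on TPM (-1.84, adjusted p = 0.00934). Of the immediate early genes 6 of 9 were lower and 0 higher in tumour-bearing lung, beside 29.3% and 30.4% of all genes. These genes respond within minutes and also to tissue handling. Their summed levels were 299.8 to 1167 TPM in tumour-bearing and 3821 to 4962 TPM in control lung. Nfkbia was lower between the groups too. Among the tumour-bearing lungs the sum and Nfkbia had the same order, from replicate 2 (299.8 TPM and 73.5 CPM) to replicate 4 (1167 TPM and 146.9 CPM). Among the control lungs replicate 1 had the highest sum and the lowest Nfkbia (231.9 CPM). Jun fell by 6.12 on the log2 scale (adjusted p = 1.56e-06) and Zfp36, the gene of an mRNA-destabilising protein, fell by 3.08 (adjusted p = 0.000482). The part of handling or of the time to RNA extraction in the lower Nfkbia and Tnfaip3 values was not tested.

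In muscle 12 of the 73 tested pathway genes were higher and 3 lower, with a median of 0.44 beside -0.03 for all genes and a background of 8.53% higher and 6.75% lower. The lists did not share this direction, since the medians of target genes (-0.52), ligands (-0.90) and non-canonical targets (-1.65) were below 0. On TPM the counts were 3 and 1, without a filter 21 and 5, with the replicate block 16 and 7, in 1 fit of all libraries 20 and 6, in DESeq2 18 and 5 and among genes averaging at least 1 CPM 12 and 0. They also rest on few libraries: with any 1 control left out they were 2 and 0, without tumour-bearing replicate 2 they were 22 and 6, and without replicate 3 they were 7 and 3. The clearest member was Nfkbib, the IkB-beta gene, with 198, 82.8 and 134 CPM in tumour-bearing muscle and 19.9, 17.9 and 15.7 CPM in control muscle. This is a 7.75-fold rise (log2 fold change 2.95, adjusted p = 0.00604), and it passed under every alternative run. Nfkbib shares 42 of 2169 exon bases with Sirt2 on the opposite strand (1.23 in muscle, adjusted p = 0.0416), and 314 with Ccer2, which averaged 0.05 TPM in tumour-bearing and 0.04 TPM in control muscle. Nfkbil1 rose as well (1.49, adjusted p = 0.0226; 0.0773, 0.0953 and 0.107 without control 1, 2 and 3 and 0.0525 without tumour-bearing replicate 3), whereas Nfkbie (-1.43, adjusted p = 0.0704; 0.0261 in 1 fit of all libraries), Nfkbiz (0.42, adjusted p = 0.492) and Bcl3 (0.71, adjusted p = 0.268) did not pass and Nfkbid was too low to be tested.

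Map3k14, the NIK gene, had 48.6, 4.32 and 10.5 CPM in tumour-bearing muscle and 3.33, 3.45 and 2.89 CPM in control muscle. All tumour-bearing values were higher, but replicate 1 set the size: the log2 fold change was 2.72 (adjusted p = 0.0438) with it and 1.22 (adjusted p = 0.0839) without it. The call was lost also without tumour-bearing replicate 3 (adjusted p = 0.0585) or any control (0.114, 0.119 and 0.156), with upper-quartile scaling (0.0527), in limma-voom (0.09996) and on TPM (0.226). The others of that arm did not pass, Traf3 at 0.50 (adjusted p = 0.358), Birc2 at 0.48 (adjusted p = 0.320) and Birc3 at 0.51 (adjusted p = 0.289). For the counts that follow, 8.53% of all genes in muscle were called higher and 6.75% lower. Of receptors 2 of 10 tested rose: Tnfrsf12a (1.72, adjusted p = 0.0245) had 78.9, 37.8 and 49.4 CPM in tumour-bearing muscle against 22.1, 18.2 and 10.1 CPM in control muscle, and Il1r1 rose by 1.27 (adjusted p = 0.0443). Of 11 tested brakes 3 rose, among them Otulin, a deubiquitinase of linear chains (1.48, adjusted p = 0.0189), and Tnip1 (1.72, adjusted p = 0.0247). Of these, Tnfrsf12a, Otulin and Tnip1 lost their calls without any 1 control (adjusted p from 0.0640 to 0.115), and Il1r1 without any 1 control or without tumour-bearing replicate 1 or 3 (0.0862 to 0.174), with upper-quartile scaling (0.0675) and in limma-voom (0.0530). On TPM these 4 genes, Nfkbil1, Cd83 and Il18 missed the threshold too (0.0591 to 0.235).

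Of 16 tested target genes in muscle 3 rose and 1 fell, against 8.53% higher and 6.75% lower of all genes. Lcn2, encoding the neutrophil-associated lipocalin 2, had 62.0, 9.21 and 67.0 CPM in tumour-bearing muscle and 0.903, 1.44 and 1.37 CPM in control muscle (log2 fold change 5.22, adjusted p = 0.00718; 0.0541 without control 3). Cd83 fell (-2.99, adjusted p = 0.0105), at 0.116 to 0.154 CPM in tumour-bearing and 0.950 to 1.33 CPM in control muscle, and lost its call without control 1, 2 or 3 (0.0554, 0.0602 and 0.0540). The B cell chemokine gene Cxcl13 had 10.8, 2.32 and 6.25 CPM in tumour-bearing muscle and 0.1075, 0.1499 and 0.722 CPM in control muscle (4.40, adjusted p = 0.0145; 0.0587 without control 1 and 0.0660 without control 2), and Ccl21a did not pass (-1.65, adjusted p = 0.0527; 0.0286 without tumour-bearing replicate 1, and 0.000252 to 0.0384 in DESeq2, in limma-voom, without a filter and with the replicate block). Of 3 tested ligands Il18 fell (-1.999, adjusted p = 0.0384), at 0.162 to 0.335 CPM in tumour-bearing and 0.752 to 1.63 CPM in control muscle, and its call was lost without any 1 control or without tumour-bearing replicate 1 or 3 (0.0681 to 0.153). Tnfsf12 did not pass (-0.90, adjusted p = 0.0993; 0.0414 without tumour-bearing replicate 2). Of 21 adaptors and kinases 0 rose in edgeR and 1 fell. Tank missed the threshold (1.18, adjusted p = 0.0586; 0.00810 without tumour-bearing replicate 2, and 0.00629 to 0.0459 in DESeq2, without a filter, with the replicate block and in 1 fit of all libraries). DESeq2 called 2 higher and 1 lower in that list. At an unadjusted p below 0.05 edgeR had 6 higher and 2 lower, where 5126 of all 14373 genes passed in either direction.

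Neutrophil markers were higher in tumour-bearing muscle, at a sum of 7.64 to 13.0 TPM in tumour-bearing and 1.23 to 1.67 TPM in control muscle, with 3 of 3 tested higher and Cxcr2 listed at 0 in every control. By library the sum was 11.99, 12.95 and 7.64 TPM in tumour-bearing replicates 1 to 3. The markers did not share 1 order. S100a8 and S100a9, the largest parts of the sum, were highest in replicate 2 (5.99 and 5.37 TPM). Retnlg, Csf3r and Cxcr2 were highest in replicate 1 (1.98, 0.35 and 0.20 TPM). Lcn2, Cxcl13 and Map3k14 were lowest of the tumour-bearing muscles in replicate 2. Alveolar macrophage markers summed to 10.2 to 30.6 TPM in tumour-bearing and 3.88 to 4.53 TPM in control muscle, with 3 of 3 tested higher (Chil3 at 6.31, Ear2 at 3.79 and Car4 at 1.15 on the log2 scale). The other markers of that list were too low to be tested. Siglecf was listed at 0 in every muscle library, and Marco at 0 in all but tumour-bearing replicate 1, with 3 counts. Of 6 macrophage markers only Cd68 was called, at 28.6, 2.32 and 7.26 CPM in tumour-bearing and 1.72, 2.16 and 2.43 CPM in control muscle. The median of the list was -0.49. Adgre1, Csf1r and C1qa were lower in every tumour-bearing muscle than in any control, as were 22.0% of all genes. Fibroblast markers summed to 178 to 325 TPM in tumour-bearing and 265 to 294 TPM in control muscle, with 3 of 5 lower (Col1a1 at -5.12, Thy1 at -3.16 and Lum at -2.55). The T cell marker Cd3e (-4.52), the B cell marker Cd79b (-2.71), the endothelial marker Kdr (-1.16) and the alveolar type 1 marker Rtkn2 (-3.91) were lower as well. Of all genes in muscle 8.53% were called higher and 6.75% lower. Of the immediate early genes 3 of 9 were higher and 0 lower, with Junb at 2.88 (adjusted p = 0.0204) and Atf3 at 1.301 (adjusted p = 0.0378), both without a call when any 1 control (adjusted p from 0.0680 to 0.145) or tumour-bearing replicate 3 (0.0542 for Junb, 0.0743 for Atf3) was left out, and Atf3 also without tumour-bearing replicate 1 (0.0721), with upper-quartile scaling (0.0552) and in 1 fit of all libraries (0.309). On TPM both missed it (0.0685 for Junb, 0.212 for Atf3). Their summed level was 30.5 to 105.2 TPM in tumour-bearing and 21.9 to 49.1 TPM in control muscle. The part of infiltrating cells or of handling in the muscle results was not tested.

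**Figure D4:**
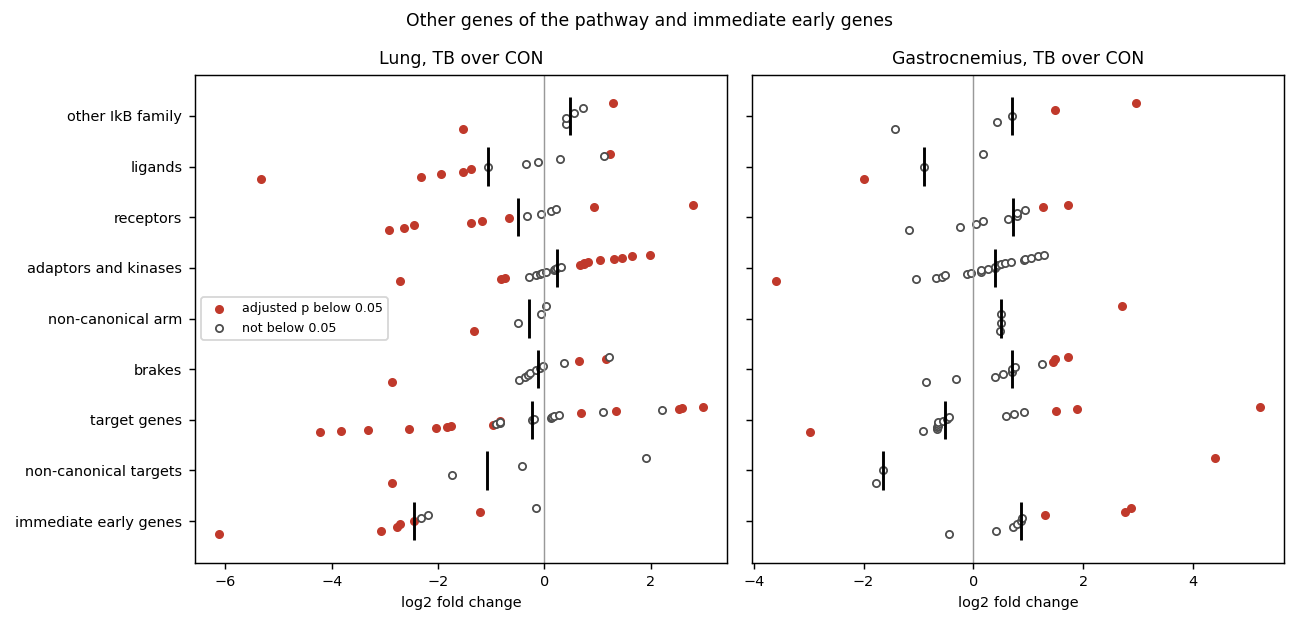
Each point is 1 gene of the list named at the left, placed by its log2 fold change of tumour-bearing over control in lung and in gastrocnemius, and filled where the adjusted p is below 0.05. Vertical strokes are list medians, which lie at -1.07 for ligands and 0.24 for adaptors and kinases in lung.

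The genes with profiles most like those of the 10 were found over the 14 libraries, each profile taken as log2 CPM minus the control mean of the same tissue, by Euclidean distance among 13860 genes tested in both tissues. Nfkb2 came closest to Cog4 at a distance of 0.42, Chuk to Osbpl3 at 0.44, Rela to Ctdsp2 at 0.47 and Nfkb1 to Pacs2 at 0.55. Ikbkg was nearest to Dctn4 and Ikbkb to Trappc5, both at a distance near 0.55. Relb was nearest to Ankrd23 at 0.73, Rel to Zfp518a at 0.94, and Nfkbia to the immediate early gene Ier2 at 0.995. Tnfaip3 had no close neighbour, its nearest being Lmo7 at 1.97. None of the nearest genes was another of the 10.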

How the data were processed

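Bulk RNA-seq libraries of lung and gastrocnemius were compared by the groups in their titles. Per the submitters' processing notes, Trim Galore, STAR 2.7.9a and RSEM 1.3.3 were used; their options, including strand, and the genome build were not given in the sources used here. The authors deposited RSEM expected counts and TPM for 55416 Ensembl genes per library, with symbols found here for 52083. Expected counts are estimates that split reads shared between genes. Per the file headers a transcript length and an effective length come with each value.

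Expected counts were rounded to whole numbers and tested per tissue in R 4.3.3 with edgeR 4.0.16 (TMM, filterByExpr, two-sided quasi-likelihood test), and in 1 fit of 14 libraries for the difference between tissues and for control lung against control muscle. Adjustment was by Benjamini-Hochberg over all tested genes, with 0.05 as the threshold, and standard errors are the absolute log2 fold change over the square root of F. Data were simulated at the size of each comparison, with changes of 4-fold. Of the changed genes, 98.5% were recovered in muscle (14419 genes) and 96.0% in lung (19142 genes). These rates check the procedure for changes of that size only. They do not give the power for smaller changes, such as that of Rela in muscle (2.30-fold). The simulation used 1 fixed dispersion for all genes, which was not estimated from these libraries. The real spread differed by gene: in tumour-bearing muscle Nfkb2 had 13.3 ± 0.94 CPM and Rela 30.6 ± 18.6 CPM (SD, n = 3). The recovery rates therefore do not apply to genes as variable as Rela. Genes without a call in muscle can therefore not be read as unchanged.

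The 10 genes and all lists were chosen with earlier results of these data known. Named beside the 10 were, per list and tissue, the 2 genes with the smallest unadjusted p and every gene of the non-canonical arm and of the other IkB genes. One gene that this rule names is not reported here by name; it stays in the counts. Alternatives were RLE and upper-quartile scaling, DESeq2 1.42.0, limma 3.58.1 (voom, and trend on log2(TPM + 1)), testing unfiltered genes or those averaging at least 1 CPM, the replicate number as a block, 1 fit of all libraries and leaving out each library. Pairs of replicates differed by more than counting noise (chi-square per degree of freedom 19.5 to 437), so none was merged. Intervals for counting error are not given, since the replicate spread exceeds it; a count of 0 allows up to 3 counts, or 0.0491 to 0.0924 CPM, in a library.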

Additional observations from a re-analysis of the deposited data

Results flagged for a closer look

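The tumour-bearing lung library of replicate 5 stood apart from the other four in Tnfaip3, at 55.01 CPM against 13.0 to 24.3 CPM, by Dixon's test at the 95% level. Of the 10 genes, each tested once in the 5 tumour-bearing lungs, this was 1, and chance alone gives about 1 in 20 groups. Replicate 5 also had the highest Chuk and Ikbkb values of the 5, at 87.8 and 103.3 CPM, and its Nfkbia was 106.9 CPM, inside the range of the others.

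The tumour effect differed between lung and muscle, in the test of the difference itself, for Nfkbia (log2 difference -1.78, adjusted p = 0.0159), Rela (-1.68, adjusted p = 0.00675), Rel (-1.68, adjusted p = 0.0416) and Nfkb1 (-1.12, adjusted p = 0.0213). All 4 were lower in every tumour-bearing lung than in any control lung. In muscle, Rela was higher in 3 of 3 tumour-bearing libraries and the groups of Nfkbia, Rel and Nfkb1 overlapped.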

How the results depend on the processing

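Nfkb1 and Nfkbia in lung, and the difference between tissues in Rela, kept their direction and side of the threshold under every alternative run. Among 760 comparisons of a member's value with an alternative, 670 kept both, 41 lost and 32 gained a call and 17 changed sign, none of them for a called value. In muscle the number of the 10 genes called was 0, but 1 with RLE scaling (Nfkb2), 1 without a filter (Rela), 1 with the replicate block (Relb), 3 in DESeq2 and 3 in 1 fit of all libraries, and 0 to 3 with 1 library left out. All genes called in muscle were 2196, against 3657 in DESeq2, 415 on TPM, 4031 without a filter, 3303 with the replicate block, 3459 in 1 fit of all libraries and 106 to 4513 with 1 library left out (243, 141 and 106 without control 1, 2 and 3, and 1432, 4513 and 1129 without tumour-bearing replicate 1, 2 and 3). Upper-quartile scaling turned the muscle split of 1226 higher and 970 lower to 760 and 1079. In lung the calls among the 10 were 4 in 1 fit of all libraries and 3 to 7 with 1 library left out; on TPM the split of all genes was 3594 higher and 7994 lower. DESeq2 called 7 of the 10 for the difference between tissues, and 3 to 6 were called with 1 library left out. On TPM its split was 2401 higher and 6624 lower.

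Values that changed sign were all uncalled in the main test, and of those listed here Traf3 in lung on TPM passed the threshold with the other sign (adjusted p = 0.0371). In lung they were Chuk (-0.053) and Ikbkg (-0.21) on TPM, Relb with 1 library left out (-0.17 to 0.094), Nfkbib on TPM (-0.06), Traf3 with RLE (-0.013), upper-quartile (-0.065), DESeq2 (-0.0134), TPM (-0.38), the minimum of 1 CPM (-0.012) and all libraries in 1 fit (-0.041), and Birc2 with 1 library left out (-0.37 to 0.13). In muscle, with 1 library left out, they were Nfkb1 (-0.093 to 0.59), Rel (-0.031 to 0.77), Nfkbia (-0.45 to 0.57) and Tnfaip3 (-1.22 to 0.63). Upper-quartile scaling also turned Nfkbia (-0.005) and Tnfaip3 (-0.16), and voom (-0.33) and the replicate block (-0.33) turned Tnfaip3. For the difference between tissues, with 1 library left out, they were Ikbkg (-0.29 to 0.14) and Tnfaip3 (-1.74 to 0.080).

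Same-numbered tumour-bearing and control libraries deviated together in part (correlations of 0.356, -0.046 and 0.366 in muscle and 0.037, 0.058 and -0.001 in lung). In muscle the crossed pairs of replicates 1 and 3 had correlations of -0.345 and -0.405. The labels do not say whether the numbers pair the samples, and deviations within groups this small cannot decide it. Under the replicate block Ikbkb in lung (adjusted p = 0.0811) and Nfkb1 for the difference between tissues (adjusted p = 0.0867) were past the threshold no longer, as were Ikbkg and Rela between the control tissues (0.0658 and 0.0732). The causes of these shifts were not tested. In tumour-bearing muscle Tnfaip3 had 167, 34 and 7 counts and Rel 175, 55 and 40 counts, a spread beyond counting error, so that the spread between libraries as well as depth limits what could be detected.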
